A study of Saccharomyces cerevisiae with 6 samples.

Results

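The sites described here are unannotated 5′ splice sites (5′SSs) of budding yeast: positions, other than the annotated 5′SS, from which an intron was spliced to its annotated 3′SS. A splice junction was taken as such a site when it was nuclear and not annotated, had GT-AG or GC-AG ends, shared strand and 3′SS with an annotated junction, began 1 to 1000 nt from the annotated 5′SS in either direction, and had at least 2 uniquely mapped split reads summed over the 6 libraries. By this rule there were 275 sites among 14053 nuclear junctions with at least 1 unique read, in 134 genes, and they carried 25653 unique reads in all. The read threshold made little difference to the set: 16 sites had exactly 2 reads, and 20 further junctions met the rest of the rule with 1 read. The sites were chosen by their summed reads in these libraries, so their number and levels are given as a description.

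The libraries were of rRNA-depleted total RNA from log-phase cells of 3 strains, each sequenced as 2 biological replicates. All strains lacked chromosomal RPB1, which encodes the largest subunit of RNA polymerase II (RNAPII), and carried it on a LEU2 plasmid as wild type (WT), as rpb1-G1097D (fast elongation) or as rpb1-H1085Y (slow elongation). All strains, WT included, also carried a deletion of UPF1 (upf1Δ), so that no strain here had nonsense-mediated decay (NMD), and the effect of NMD itself cannot be read from these libraries. Neither the RPB1 allele nor the UPF1 deletion leaves a splice junction by which the labels could be checked. Depth was 4127729 to 6863818 unique split reads per library, lowest in slow replicate 1, and unannotated 5′SSs had 3146 to 4916 reads per library. Mitochondrial split reads numbered 60505 and 62482 in WT, 33769 and 43268 in the fast strain, but only 332 and 293 in the slow strain. The reason was not tested, and effects of slow elongation cannot be told apart from this difference.

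A 5′SS is first paired with the U1 snRNA and then handed to the U6 snRNA, both of which contact the first bases of the intron. In budding yeast these bases are most often GTATGT, and the branch point is usually TACTAAC. Splicing from a wrong 5′SS removes too much or too little RNA, which often shifts the reading frame and brings in a premature stop codon, and NMD, in which Upf1 is the central helicase, degrades such transcripts. A upf1Δ background is therefore used to see them.

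Use of each site is given as reads per 10000 reads of the annotated junction with the same 3′SS. The sequences of the most used and most variable sites are shown first, since the match to GTATGT and the position relative to the annotated 5′SS recur in the results. A site is named by its gene and its distance from the annotated 5′SS, with + for the intron side, which shortens the intron, and − for the exon side, which lengthens it. All sequences are from the R64 reference, 5′ to 3′ on the strand of the gene, with the first 6 bases of the unannotated intron in capitals.

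The first set shows sites that overlap the annotated 5′SS. Each stretch runs from 10 bases before the annotated intron to its 18th base, so the annotated intron starts at the 11th base shown.
RPL30 +4, chrVII:439084-439111 (+): cgcagagatggtcaGTATAAcatgattt
TUB3 +4, chrXIII:23641-23668 (-): agtattaatggtatGTATGCgttccttt
SAC6 +4, chrIV:715341-715368 (-): caaattacaagtatGTATGCctttctcg
RPL27A −4, chrVIII:126542-126569 (+): ggtaaaGTTGGTacgtatcattttcagt
RPL27B −4, chrIV:1401791-1401818 (+): ggtaaaGTTGGTacgtaaatttaacaga
RPL37A −3, chrXII:522660-522687 (+): aaaatggGTAGTAtgtagtaggacattg
RPL37B −3, chrIV:1450829-1450856 (-): aagatggGTAGTAtgtacaggaattatt
In the 3 sites at +4 the last 2 bases of the annotated hexamer are themselves the GT of the unannotated site. The exon sequences around the sites of each gene pair, RPL27A with RPL27B and RPL37A with RPL37B, are nearly the same, and each pair had its site at the same place.

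The second set shows distant sites, with 8 bases before and 12 bases from the unannotated 5′SS on.
RPL22B +64, chrVI:64845-64864 (-): tttaaaaaGTTTGTctattc
RPL22A +71, chrXII:263269-263288 (+): gattgattGTACGCgaataa
RPL22A +122, chrXII:263320-263339 (+): ataaaaatGTACGAaacgaa
HMRA1 −89, chrIII:293843-293862 (+): tatttgtaGTATGGcggaaa
YBR090C +243, chrII:426619-426638 (-): ctcaagttGTAAGTcaggac
LSM2 −56, chrII:170613-170632 (+): cctagcaaGTATGCttttct
RPS22B +414, chrXII:856981-857000 (+): tttatgaaGTAAGCaaaaat
RPL37A +221, chrXII:522883-522902 (+): ttctgcttGTATGCctgagg
RPL21B +79, chrXVI:406718-406737 (+): ataaacatGTATGCaagagg
RPL2B +246, chrIX:317010-317029 (+): ctatcaaaGTATGAgaataa
RPS27B +158, chrVIII:148497-148516 (-): tgataggaGTATGCgtttcc
RPL7B +306, chrXVI:173964-173983 (+): cttagaaaGTTTTAtcgtgc
RPL7B +314, chrXVI:173972-173991 (+): gttttatcGTGCATattttt
GTATGC, which differs from GTATGT in the last base alone, is the hexamer of LSM2 −56, RPL37A +221, RPL21B +79, RPS27B +158, TUB3 +4 and SAC6 +4. The RPL7B sites lie 8 nt apart and share the fewest bases with GTATGT in this set.

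All 275 sites had GT at the start of the intron, and 0 had GC. Their hexamers were far more varied than the annotated ones. Of 267 annotated junctions 76.0% had GTATGT, 23 had GTACGT and 13 had GTAAGT, whereas 15 of the 275 unannotated sites had GTATGT, and 7 of those 15 were annotated 5′SSs of another intron, reached by exon skipping. GTA opened 174 sites (63.3%) against 95.9% of annotated introns. A large difference was at base 5, which is G in 265 annotated introns (99.3%) and in 129 unannotated ones (46.9%). Of all 6 bases, 105 sites shared 4 with GTATGT, 70 shared 5, 55 shared 3 and 30 shared the GT only. Scored base by base against the annotated 5′SSs over 4 exon and 7 intron bases, 7 sites matched better than the annotated 5′SS of their intron, and 3 of these were exon skips.

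To see how far the match sets the sites apart from other positions that could have been used, every GT in the annotated introns that had reads was listed, as long as at least 58 nt of intron remained, the length of the shortest unannotated intron. The share of these used was higher at better matches. On the intron side 24 of 702 GTs that shared only their GT with GTATGT were sites (3.42%), as were 37 of 962 sharing 3 bases (3.85%), 71 of 577 sharing 4 (12.3%) and 41 of 110 sharing 5 (37.3%). On the exon side, within 200 nt, the shares were 0.862%, 1.62%, 5.29% and 13.7%. At 2 to 5 shared bases a larger share of GTs was used on the intron side than on the exon side. The 200 nt were counted for every intron, whether or not the transcript reached that far upstream. GTs outside the transcript lower the exon-side shares, so the 2 sides are not directly comparable. An exact GTATGT was rare, with 4 of 7 used on the exon side and 0 of 1 on the intron side. Of these 4, VMA9 −158, DYN2 −119 and TAD3 −120 are annotated 5′SSs of another intron, reached by exon skipping. Only RPS30A −92 is not annotated, so the shares at an exact GTATGT say little about unannotated positions. The aligner reads no base beyond the dinucleotides at the intron ends when it names the motif, so the hexamer was not part of the rule. Depth of the host enters, since 2 reads are more easily reached in an abundant transcript. In introns whose annotated junction had at least 100000 reads the intron-side shares were 4.08%, 4.49%, 16.1% and 47.3%. These shares were not tested.

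**Figure D1:**
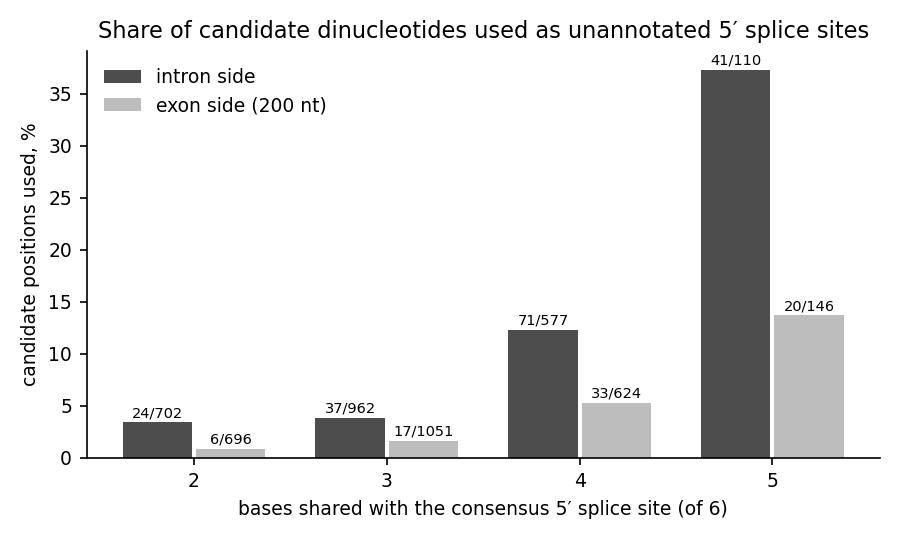
Share of GT dinucleotides (percent, y axis) that were unannotated 5′SSs, by the number of bases shared with GTATGT (x axis, 2 to 5 of 6), for the intron side and for 200 nt on the exon side of annotated 5′SSs; the counts stand over the bars. On the intron side the share goes from 3.42% at 2 shared bases to 37.3% at 5.

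The sites lay on both sides of the annotated 5′SS, with 173 on the intron side and 102 on the exon side. Ribosomal protein (RP) genes, whose introns in yeast are long and whose transcripts are most of the spliced RNA, hosted 180 sites in 71 genes: 109 in 42 genes of the large subunit (RPL) and 71 in 29 of the small subunit (RPS). The other 95 sites were in 63 non-RP genes. RP genes were taken by symbol, RPL or RPS followed by a digit. Ribosomal protein genes named otherwise therefore count as non-RP, among them RPP1B, whose annotated junction had 431728 reads. On the intron side 139 sites were in RP and 34 in non-RP genes, and on the exon side 41 were in RP and 61 in non-RP genes. The distances differed as well. On the intron side the median distance was 176 nt in RP genes and 6 nt in non-RP genes, and on the exon side it was 43 nt in RP and 81 nt in non-RP genes. The farthest sites lay 452 nt into an intron and 697 nt upstream. Most genes had few sites: 67 hosts had 1, 10 had 5 or more, and RPL26B and RPS23B had 7 each. Junctions with a site had a median of 97305 annotated reads and those without 7826, so detection moved with abundance.

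**Figure D2:**
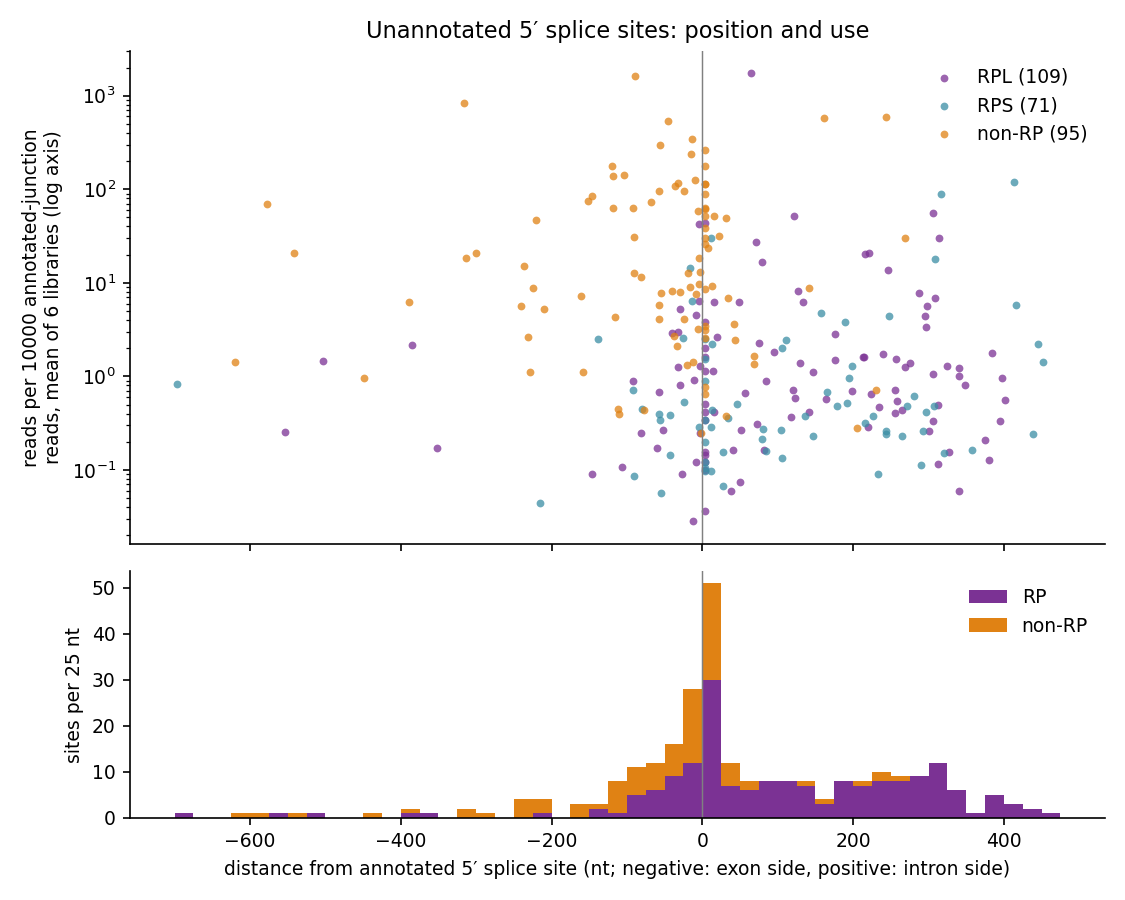
Mean use over the 6 libraries (upper panel, reads per 10000 annotated reads, log axis) and number of sites per 25 nt (lower panel) against distance from the annotated 5′SS in nt, negative on the exon side, for RPL, RPS and non-RP genes. Sites crowd just inside the annotated 5′SS, RP sites extend over 400 nt into the intron, and non-RP sites are higher on the y axis, with a median of 12.7 against 0.604 for RP sites.

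The distance found most often was +4, with 38 sites (21 in RP and 17 in non-RP genes) and 5181 reads, and the next most frequent distance had 4 sites. GTATGT carries another GT at bases 5 and 6, and 245 of the 263 annotated introns with reads (93.2%) had GT there, of which 15.5% had a site. Where this GT was followed by A, so that the inner hexamer also began GTA, 24 of 82 introns had a site at +4 (29.3%), against 14 of 163 with another base (8.59%). Introns with a +4 site had a median of 106175 annotated reads and those with the GT but no site 15528; the part of depth in these shares was not tested.

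RPL30 +4 had more reads than any other site, 3060 or 11.9% of all. RPL30 encodes a large-subunit protein that binds its own pre-mRNA and represses its splicing, and its annotated 5′SS is GTCAGT rather than GTATGT. Use of RPL30 +4 was 45.4 and 43.2 in WT, 43.3 and 32.7 in the fast strain and 44.0 and 55.7 in the slow strain, so that WT met the range of fast at its upper end and the range of slow at its lower end. TUB3 +4, in an α-tubulin gene, had 336 and 353 in WT, 272 and 200.9 in the fast strain and 240 and 167 in the slow strain. Both WT libraries lay above all mutant ones, but the difference did not pass the test in edgeR (fast, log2 change −0.56, adjusted p = 0.992; slow, −0.78, adjusted p = 0.988). The annotated junction of TUB3 had more reads in the mutants, 1023 to 1251 per 1000000 split reads against 854 and 696 in WT, while on the same scale the site itself had 28.7 and 24.5 in WT, 29.6 and 20.5 in the fast strain and 30.04 and 17.9 in the slow strain, with all strains overlapping. SAC6 +4, in the gene of the actin-bundling protein fimbrin, had 113 and 194 in WT, 93.8 and 209 in the fast strain and 251 and 200 in the slow strain. Both slow libraries of SAC6 lay above both WT libraries, and the fast libraries overlapped both strains.

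Sites overlapping the annotated 5′SS from the exon side were rarer, with 3 at −4 and 3 at −3. RPL27A −4 and RPL27B −4 share the hexamer GTTGGT. RPL27B −4 had 54.8 and 76.7 in WT, 32.1 and 36.6 in the fast strain and 34.8 and 22.3 in the slow strain, and RPL27A −4 had 6.96 and 7.13, 3.36 and 5.38, and 7.77 and 7.82 in the same order. WT and fast did not overlap for either gene, whereas slow lay below WT in RPL27B and above it in RPL27A. Sites in both copies of an RP gene pair were found for 29 pairs, and 6 of these pairs shared a distance: RPL17 (−32), RPL27 (−9 and −4), RPL37 (−3 and +4), RPS10 (+4), RPS23 (−43) and RPS9 (+4). All shared distances were on the exon side or at +4.

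Beyond the sites near the annotated 5′SS, 101 of the RP sites lay more than 50 nt into the intron. On the intron side, 162 sites were in introns with an exact TACTAAC, and in all 162 the last TACTAAC was still inside the shortened intron, a median of 148.5 nt and at least 35 nt from the new 5′SS. Unannotated introns were 58 to 1180 nt long.

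RPL22A and RPL22B, which encode the large-subunit protein eL22, held 3 of the 5 sites with most reads. The annotated 5′SS of RPL22A is GTATGA and that of RPL22B is GTACGT. Rpl22 is known to bind the RPL22B intron and hold back its splicing. RPL22B +64 had 1863 and 1643 reads per 10000 annotated reads in WT, 1337 and 1898 in the fast strain and 1168 and 2541 in the slow strain, the highest mean use of any site with at least 20 reads. Pre-mRNA reads of RPL22B, those in the intron or over its boundaries, were 93.4 to 97.7% of pre-mRNA and exon junction reads together in the 6 libraries. Reads within exons were left out and intron length was not allowed for, so this is not the unspliced share of the RNA. Its ratio was not called between strains in edgeR (log2 change −0.13 against WT in fast, −0.02 in slow, edgeR adjusted p of 1 for both), while its annotated junction had 471 and 466 reads per 1000000 split reads in WT, 233 and 194 in the fast strain and 510 and 457 in the slow strain. Both junctions had fewer reads in fast, and tested as a level with TMM scaling the site itself fell there (log2 change −1.27 ± 0.30 SE against WT, edgeR adjusted p = 0.00235).

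RPL22A had its sites at +71 and +122. Use of RPL22A +122 was 36.3 and 47.0 in WT, 37.6 and 42.9 in the fast strain and 61.9 and 84.2 in the slow strain. Use of RPL22A +71 was 15.5 and 17.5 in WT, 21.8 and 26.6 in the fast strain and 54.2 and 30.2 in the slow strain. At both sites the slow libraries lay above all others, and at +71 fast lay between WT and slow without overlap. Neither passed the test in edgeR (slow against WT, log2 change 0.80 and 1.30, adjusted p = 0.988 and 0.874).

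Non-RP sites were used at higher ratios. Of 20 sites with a mean use of at least 100 per 10000, that is 1% of the annotated junction, 18 were in non-RP genes. The 2 reads that make a site correspond to a median ratio of 2.02 per 10000 at non-RP hosts and 0.0698 at RP hosts, so low ratios could be seen at RP hosts only. HMRA1 −89 had the second-highest use of all sites with at least 20 reads: 1607 and 1104 in WT, 2166 and 2211 in the fast strain and 1473 and 1289 in the slow strain. HMRA1 is the copy of the a1 mating-type gene at the silent HMR locus. The strains are MATa by the study's strain list and the reference genome carries α information at MAT, so reads of a1 transcribed from MAT align to HMRA1. Both fast libraries lay above the other 4 (fast against WT, log2 change 0.72, edgeR adjusted p = 0.918).

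YBR090C +243, in a gene of unknown function, had 417 and 644 in WT, 625 and 245 in the fast strain and 933 and 665 in the slow strain. The slow libraries were the highest, with slow replicate 2 little above WT replicate 2. LSM2 −56 lies in the gene of a protein that binds U6 snRNA, and its use removes the start codon. It had 159 and 147 in WT, 616 and 367 in the fast strain and 285 and 210 in the slow strain, with no overlap between any strains. Both parts of this ratio differed: the site had 65 and 61 reads in WT and 176 and 120 in fast, and the annotated junction had 675 and 777 reads per 1000000 split reads in WT and 416 and 490 in fast. RPS16A +11, in a small-subunit gene, had 33.9 and 31.5 in WT, 28.8 and 38.2 in the fast strain and 14.7 and 33.6 in the slow strain, and the strains overlapped.

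**Figure D3:**
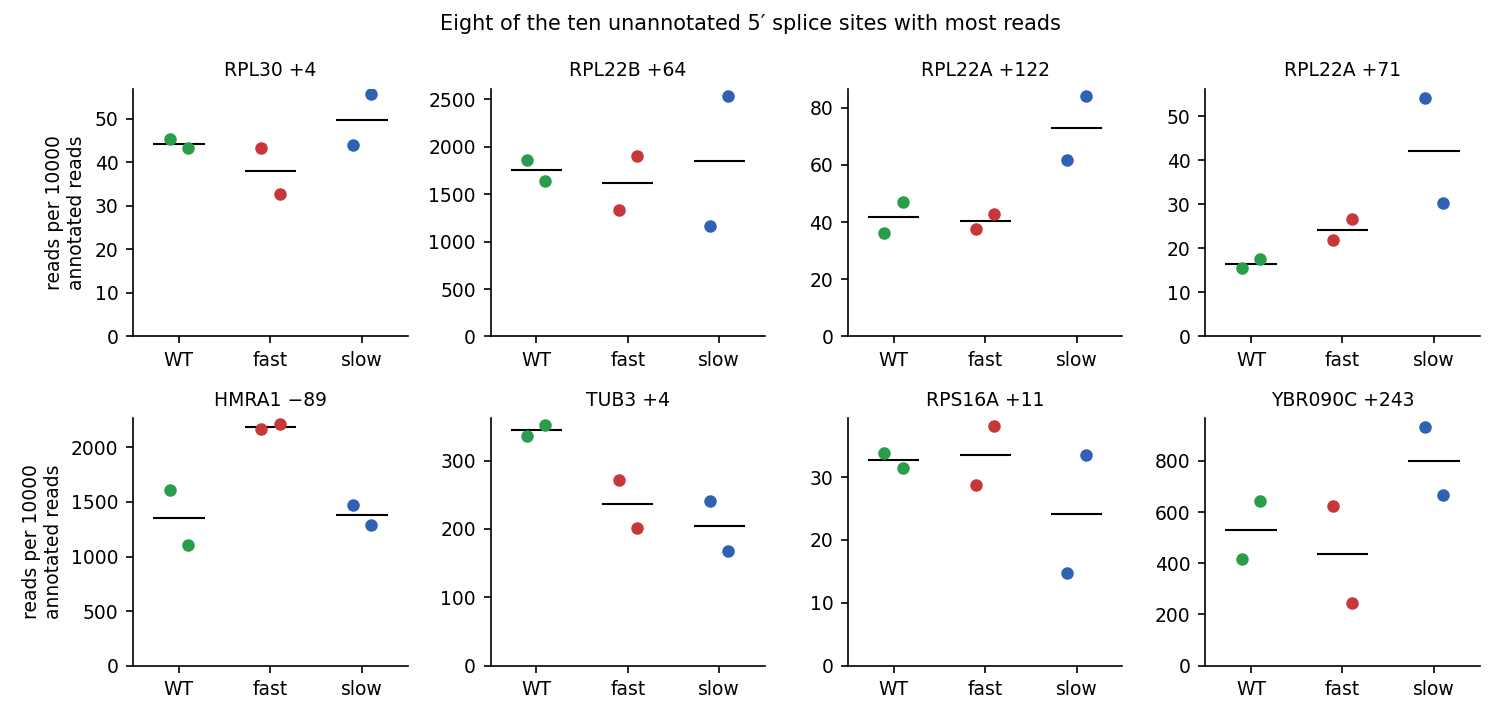
Use (y axis, reads per 10000 annotated reads, from 0) of 8 of the 10 sites with most reads, in each library of WT, fast and slow; points are libraries and lines are means of 2. RPL22A +71 and +122 are highest in slow and HMRA1 −89 in fast, while the strains overlap at RPL22B +64 and RPS16A +11.

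Other non-RP sites with a high mean use rested on few reads. CMC4 −46 had 37 reads, BET4 −14 had 43, YNL050C −15 had 42 and MPT5 +162 had 23. CMC4 −46 had 0 and 783 in WT, 2054 and 288 in the fast strain, and 0 and 84.0 in the slow strain. Fast lay above slow, while WT overlapped both and the replicates of WT and of fast were far apart.

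Most sites would change the coding sequence. Of 222 sites whose spliced coding sequence could be translated from the annotated start codon, 91.9% met a stop codon before the annotated one: 161 shifted the frame and 43 kept it but brought in a stop. A further 42 sites removed the start codon and 9 skipped an exon. The frame was kept with no early stop in 18 sites, which together had 486 reads. The 3 of these with most reads were DYN2 −6, NCE101 −24 and RPL27B −9, with 109, 64 and 50 reads.

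The 9 exon skips are junctions from the 5′SS of an earlier annotated intron to the 3′SS of a later one. DYN2 −119, in the gene of the dynein light chain, had 130 reads, with use of 0 and 132 in WT, 34.6 and 52.7 in the fast strain and 28.4 and 127 in the slow strain. TAD3 −120, in the gene of a tRNA adenosine deaminase subunit, had 78 reads, with 78.6 and 115 in WT, 267 and 282 in the fast strain and 0 and 318 in the slow strain. Both fast libraries of TAD3 lay above WT, and the slow ones lay on either side of all others. SUS1 −220, in the gene of a subunit shared by the SAGA and TREX-2 complexes, was seen in 1 library of each strain only, at 118, 85.9 and 74.5. The other 6 skips had 29 reads or fewer.

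In 15 sites the annotated intron also encloses a small nucleolar RNA (snoRNA) gene, as several yeast RP introns do. In 8 of these the snoRNA stayed inside the unannotated intron, in 1 the new 5′SS lay within it, and in 6 it lay in the part left in the mRNA. Those 6 are EFB1 +230 (SNR18), RPL7A +312 (SNR39), RPL7B +288, +306 and +314 (SNR59), and RPS22B +414 (SNR44), with the new 5′SS 15 to 75 nt past the snoRNA end. RPS22B +414 shortened an intron of 483 nt to 69 nt and began 68 nt past SNR44.

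Summed over all sites, use differed little between the strains, with both slow libraries just above the other 4: 7.99 and 7.62 reads per 10000 annotated nuclear reads in WT, 7.83 and 8.19 in the fast strain and 8.24 and 8.94 in the slow strain. Without RPL30 +4 it was 6.82 and 6.65, 6.84 and 7.49, and 7.35 and 7.83. With 2 libraries against 2 an exact permutation test cannot go below p = 0.333. RP sites gave 6.15 and 5.79 in WT, 5.76 and 6.30 in the fast strain and 5.49 and 6.32 in the slow strain. Non-RP sites gave 1.84 and 1.83 in WT, 2.06 and 1.89 in the fast strain and 2.75 and 2.62 in the slow strain, where both slow libraries lay above all others. Junctions of the non-RP hosts also took a larger share of annotated reads in slow, 9.25 and 9.65% against 7.76 to 8.07% in WT and fast. Per 10000 reads of those host junctions, non-RP sites had 23.2 and 22.7 in WT, 26.6 and 23.4 in the fast strain and 29.7 and 27.2 in the slow strain, still without overlap. A single site, YBR090C +243, had 195 and 170 of the slow reads, against 78 and 99 in WT and 129 and 44 in fast. Whether slow stays apart from fast without this site was not tested, so a general rise of non-RP sites cannot be read from the sum.

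Replicates set the limit of what the strains can show. Only 38 sites had reads in all 6 libraries, and these held 80.3% of the reads. A single library held all reads of 111 sites, a median of 6 and up to 25 reads, and 73 of the 111 had at least 5. Of the 179 sites with at least 10 reads, 40 had 0 reads in 1 WT library and at least 10 in the other, as did 33 in the fast strain and 37 in the slow strain. The libraries had no molecular identifiers, so copies of 1 molecule cannot be told apart from separate molecules. Sites seen in both libraries of at least 1 strain numbered 116. Reads were confined to a single strain in 38 sites for WT, 49 for fast and 35 for slow, but in both libraries of that strain in only 2, 7 and 2 of them.

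**Figure D4:**
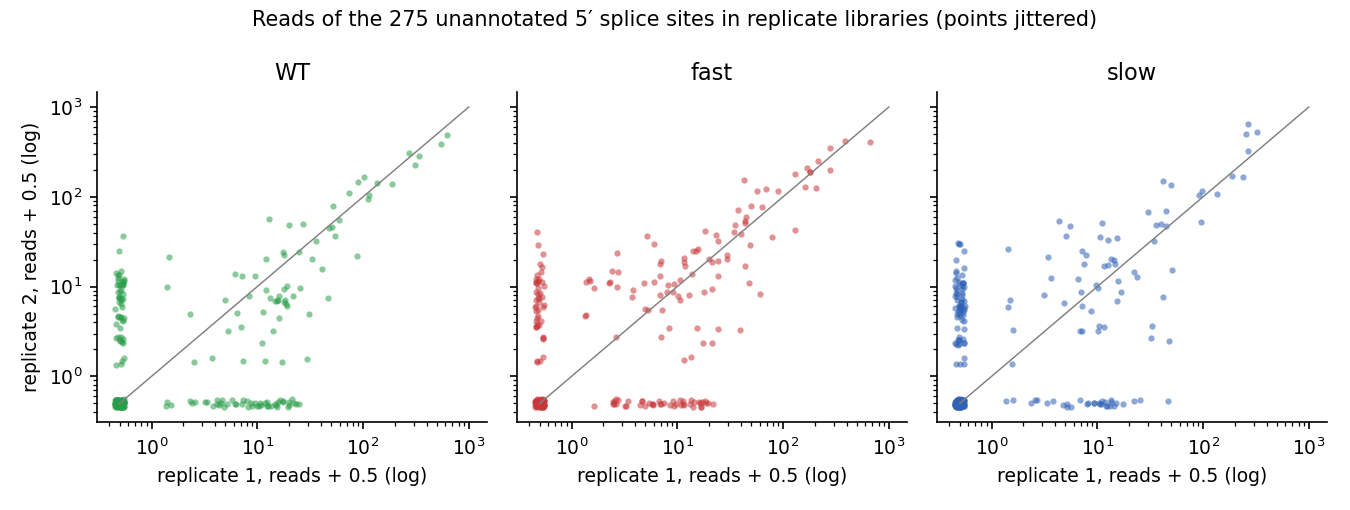
Reads of the 275 sites in replicate 2 (y axis) against replicate 1 (x axis) of WT, fast and slow, as reads + 0.5 on log axes with points jittered; the line marks equal counts. Sites along the axes have 0 reads in 1 replicate, and among sites with at least 10 reads there are 40 in WT, 33 in the fast strain and 37 in the slow strain with 0 in one and at least 10 in the other.

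Whether use differed between the strains was tested in 179 sites with at least 10 reads. The ratio of unannotated to annotated reads was compared over the libraries with the quasi-likelihood test of edgeR, fitted together with unannotated 3′SSs on 539 events, with p-values adjusted over all 539 (Benjamini-Hochberg). At an adjusted p under 0.05, 0 of the 179 sites were called in fast against WT, 0 in slow against WT and 0 in fast against slow, and 0% of all 539 events were. The unadjusted p was under 0.05 for 8, 6 and 5 of the 179 sites, and the smallest adjusted p was 0.791, 0.874 and 0.858. DESeq2 called 1, 1 and 0 sites, against 0.186%, 0.186% and 0% of all events. Where the annotated reads entered as a fixed offset, which leaves out their own spread between libraries, edgeR called 3, 1 and 2 sites, against 1.3%, 0.371% and 0.557% of all events. With reads tested as a level instead of a ratio, it called 4, 1 and 3, against 1.48%, 0.371% and 1.11%, with either TMM or RLE scaling.

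When both libraries of a strain were pooled and the pooled counts compared by Fisher's exact test (two-sided p under 0.01, false discovery rate under 0.03), the spread between libraries did not enter. This called 66 sites higher and 43 lower in fast than in WT, 36.9 and 24.0% of 179 against 32.1 and 20.2% of all events. In slow against WT it called 46 higher and 43 lower, 25.7 and 24.0% against 26.2 and 21.9%. In fast against slow it called 55 higher and 35 lower, 30.7 and 19.6% against 28.9 and 21.5%.

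The libraries of fast lay wholly above those of WT at 38 sites (21.2%, against 18.6% of all events) and wholly below at 17 (9.50% against 10.4%). For slow against WT there were 21 above and 22 below (11.7 and 12.3%, against 13.4 and 12.1%). For fast against slow there were 35 above and 13 below (19.6 and 7.26%, against 16.9 and 8.91%). These shares are near those of all unannotated events. Of the 38 sites above WT in fast, 30 were among the 115 RP sites tested and 8 among the 64 non-RP sites, and 26 were among the 93 RP sites on the intron side. The median log2 change in fast against WT was 1.90 over 75 RPL sites, 0.01 over 40 RPS sites and −0.01 over 64 non-RP sites, beside 0.19 over all 539 events. In slow against WT these medians were 0.16, −0.54 and −0.25, beside 0.05. The 21 tested sites at +4 had medians of −0.08 in fast and −0.11 in slow. Fast and slow were both compared with the same WT libraries, and fitted changes of sites with 0 reads in a strain depend on the prior count. The threshold of 10 reads was on the sum of all libraries, of which the fast ones were deepest. Sites that reached it with reads in 1 strain only numbered 21 for fast, 13 for WT and 8 for slow. Further sites, such as RPL26B +397 and RPL7B +314, had a few reads elsewhere but also reached it through 1 strain. They are not in these counts. Such sites are higher in that strain by the way they were chosen. How far they move these medians and counts was not tested.

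At several RP sites deep in the intron the libraries of 1 strain lay apart from those of another. RPL37A +221 (chromosome XII, 522891 to 523028), in the gene of the large-subunit protein eL37, had 3.11 and 1.77 reads per 10000 in WT, 59.7 and 44.7 in the fast strain and 13.7 and 1.90 in the slow strain. Both fast libraries lay above all others, and the mean was 21.4-fold that of WT. The log2 change was 4.43 ± 1.51 (SE) against WT with an unadjusted p of 0.0326 and an adjusted p of 0.791 in edgeR, and with the fixed offset it was 4.40 ± 0.73 with an adjusted p of 6.38e-07. The annotated junction differed far less, with 6901 and 7397 reads per 1000000 split reads in WT and 6563 and 6046 in fast.

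RPL21B +79, in a large-subunit gene, had 18.1 and 4.80 in WT, 35.4 and 34.9 in the fast strain and 0.989 and 4.97 in the slow strain. Fast lay above all others, while the WT libraries differed by more than 3-fold and WT overlapped slow. Fast against slow gave a log2 change of 3.87 ± 1.52 (SE; edgeR adjusted p = 0.858), called with the fixed offset (3.51 ± 0.72, adjusted p = 0.000666). RPL2B +246, in the gene of large-subunit protein uL2, had 2.20 and 7.64 in WT, 19.96 and 21.0 in the fast strain and 7.73 and 24.7 in the slow strain. Both mutants lay above WT, slow replicate 1 only just. Fast against WT gave 2.30 ± 1.32 (edgeR adjusted p = 0.791), and 2.06 ± 0.60 with the offset (adjusted p = 0.0445). RPS27B +158, in a small-subunit gene, had 1.64 and 0.884 in WT, 6.77 and 13.7 in the fast strain and 4.19 and 1.58 in the slow strain. Fast lay above WT and slow at RPS27B, and no replicate-based test called it (log2 change 2.98 ± 1.21 against WT, edgeR adjusted p = 0.791).

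RPS22B +414 (chromosome XII, 856989 to 857057), past SNR44, differed in the other direction. It had 263 and 264 in WT, 32.6 and 56.0 in the fast strain and 31.8 and 60.3 in the slow strain. The WT libraries were close to each other and every mutant library was at least 4-fold lower. WT reads were 316 and 260, against 49, 81, 28 and 62 in the mutants, and the annotated junction had 1981 and 1841 reads per 1000000 split reads in WT and 1864 to 2190 in the mutants. The log2 change was −2.62 ± 1.19 in fast and −2.59 ± 1.19 in slow (edgeR adjusted p = 0.791 and 0.874), called with the offset in both (−2.57 ± 0.49 and −2.51 ± 0.49, adjusted p = 2.85e-05 and 8.44e-05). RPS14B +317, in a gene whose protein binds its own pre-mRNA, was also lower in fast: 66.0 and 131 in WT, 32.5 and 35.96 in the fast strain and 173 and 90.3 in the slow strain (fast against WT −1.44, edgeR adjusted p = 0.791).

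RPL7B +306 and +314, past SNR59, had 0 reads in both WT libraries. RPL7B +306 had 39 and 15 reads in fast and 7 and 21 in slow, that is 176 and 70.0 per 10000 annotated reads in fast and 25.9 and 60.5 in slow. Against a floor of 3 reads over both WT libraries this was at least 74.8-fold higher in fast and at least 27.3-fold higher in slow. RPL7B +314 had 4 and 5 reads in fast and 13 and 32 in slow, at least 12.5-fold and 44.0-fold higher. The denominator differed too: the annotated junction of this second intron had 1508 and 1678 reads per 1000000 split reads in WT, 323 and 321 in the fast strain and 655 and 629 in the slow strain. In edgeR the unadjusted p was 0.00575 and 0.0117 in the fast strain and 0.0103 and 0.00541 in the slow strain, for +306 and +314, with adjusted p of 0.791 and 0.874. DESeq2 called +306 in fast (adjusted p = 0.0101) and +314 in slow (adjusted p = 0.0302). RPL7B +314 reached the read threshold for testing through the slow strain alone. It was therefore bound to be high in slow, and its p-values, DESeq2 call and fold there are only a description. RPL7A and RPL7B have near-identical coding sequences, and reads that could not be placed in 1 copy are not in these counts.

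In several further sites both libraries of a strain had reads and both libraries of another had 0. VPS29 −313, in a retromer gene, had 9 and 10 reads in fast only. With 3 reads in place of 0 its ratio was 6.50-fold above WT and 6.89-fold above slow. QCR9 +8, in a gene of respiratory complex III, had 19 and 10 reads in WT only. Reckoned the same way, its ratio was 11.9-fold above fast and 10.96-fold above slow. RPL23B +73 had 6 and 6 reads in slow only. EPT1 −57, in a phospholipid synthesis gene, had 16 and 6 reads in WT, 5 and 28 in the fast strain and 0 in the slow strain. RPL39 −385, 1 of the sites with an exact GTATGT, had 4 and 0 reads in WT, 27 and 23 in the fast strain and 0 in the slow strain. Each of these 5 sites had an unadjusted p under 0.05 in at least 1 comparison in edgeR and none had an adjusted p under 0.791. VPS29 −313, QCR9 +8, RPL23B +73 and RPL39 −385 reached the 10 reads for testing through 1 strain alone. They were therefore bound to be high in that strain, and their p-values and folds are only a description.

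RPL26B, in which 7 sites were found, 6 of them 297 to 397 nt into the intron, had more reads in fast than in WT at each of those 6. RPL26B +325 had 0 and 2 reads in WT, 31 and 39 in the fast strain and 3 and 7 in the slow strain. RPL26B +397 had 0 and 0, 17 and 37, and 0 and 7, and RPL26B +297 had 1 and 20, 39 and 66, and 32 and 31. Fast lay above WT at both +325 and +397, with unadjusted p of 0.0272 and 0.0423 in edgeR, and neither was called. The 6 sites share an intron and its annotated reads and are not independent. RPL26B +301, +375, +395 and +397 reached the 10 reads for testing through fast alone, so they were bound to be high there. Their direction and the p-value of +397 are only a description. All 14 reads of RPL26B +375 were in fast replicate 1.

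**Figure D5:**
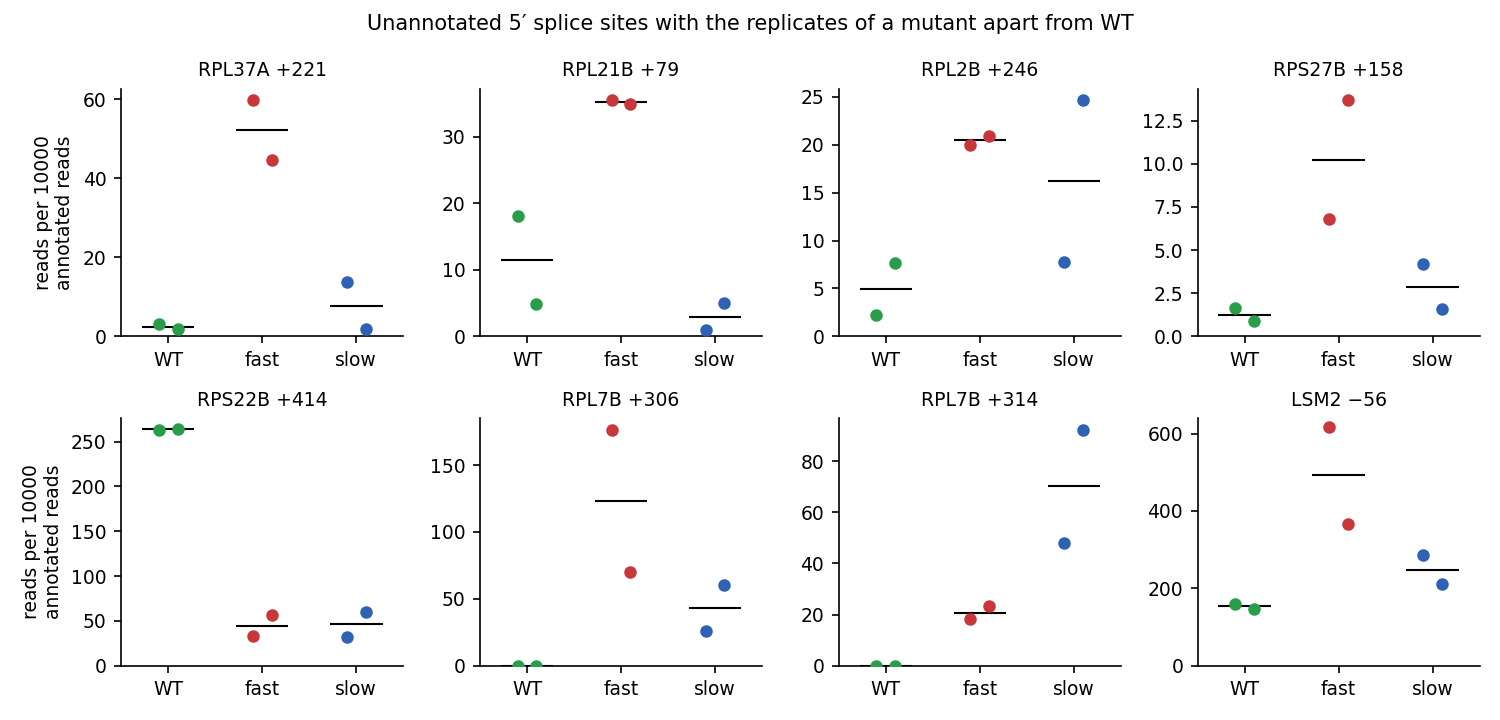
Use (y axis, reads per 10000 annotated reads, from 0) of 8 sites in each library of WT, fast and slow; points are libraries and lines are means of 2. RPL37A +221, RPL21B +79 and RPS27B +158 are highest in both fast libraries, RPS22B +414 is at 263 and 264 in WT and at most 60.3 elsewhere, and both RPL7B sites are at 0 in WT.

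IWR1, RPS6B and RPS9A had sites with few reads. IWR1 −104 had 11 reads in WT replicate 2 and 10 in slow replicate 1 and 0 elsewhere, RPS6B +79 had 7 reads, all in slow, and RPS9A −16 had 16 and 8 reads in WT, 6 and 8 in the fast strain and 0 and 10 in the slow strain. No unannotated 5′SS by this rule was found in SRC1, SPT14 or RPL13B.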

How the data were processed

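Total RNA, depleted of rRNA, of 6 libraries (3 strains, 2 each, assigned by their labels) was sequenced by the authors as strand-specific pairs and aligned with STAR (version not given in the sources used here) at default settings to R64 (sacCer3) with the Ensembl annotation. The authors deposited junction tables with raw counts of split reads, unique and multiply mapped apart, and counts per read class from the dice-count function of DICEseq. STAR asks a longer overhang of unannotated junctions, which lowers their counts relative to annotated ones.

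Sites were chosen by the rule given and tested on counts with at least 10 reads by the edgeR 4.0.16 quasi-likelihood test (R 4.3.3), with 2 columns per library, library effects and read type by strain, adjusted over 539 events. DESeq2 1.42.0 was an alternative. A floor of 3 counts stood for 0. The models were tested on simulated data, with changes in fast at 200 of 539 events. The main model called 40% of log2 changes of 3 and 21% of those of 2, in either direction. Of its 63 calls, 2 were false. The spread between libraries was set in the simulation, not taken from these data. Most changes of this size went uncalled there, so an uncalled site is not shown to be unchanged. Named sites were those with most reads (10), highest use (10, at least 20 reads), largest separated changes (4 per comparison and direction) or in some of the genes the study names. The others, among them RPL37A +221, RPL21B +79, RPL2B +246, RPS14B +317, the RPL27 and RPL37 sites and the exon skips other than TAD3 −120, were chosen after their values were seen. Members and lists were chosen with earlier results of these data known.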

Additional observations from a re-analysis of the deposited data

How the results depend on the processing

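In edgeR, 0 unannotated 5′SSs were called in each comparison with every alternative filter, with multiply mapped reads added, with all junctions of the same 3′SS as denominator, with distances up to 100 nt, without each library in turn (0 to 0), and with 5′ events alone in the fit, the last chosen after seeing the data. Calls appeared for fast against WT, slow against WT and fast against slow with DESeq2 (1, 1 and 0), Fisher's exact test (109, 89 and 90), the fixed offset (3, 1 and 2) and levels with TMM or RLE factors (4, 1 and 3). With the replicate number as a block 0 were called (unadjusted p under 0.05 in 6, 3 and 1). The deviations of same-numbered libraries correlated at 0.0495 (WT and fast), 0.0730 (WT and slow) and 0.114 (fast and slow) over 539 events, so the numbers were not taken to pair the samples. The 275 sites fell to 179 with at least 10 reads and to 146 within 100 nt. The summed use of 7.80 (WT), 8.01 (fast) and 8.59 (slow) became 6.74, 7.17 and 7.59 without RPL30 +4 and 4.95, 4.58 and 5.46 within 100 nt, and ran from 7.62 to 7.99, 7.83 to 8.19 and 8.24 to 8.94 with 1 library of each. Depth was lowest in slow replicate 1. Directions of uncalled changes were often not stable. Of 179 log2 changes of all sites considered, 64 had the opposite sign under at least 1 alternative (62 without 1 library, 22 under another setting), and 0 of the 134 opposite values had an adjusted p under 0.05. Of the 30 log2 changes compared in the report, 3 did, all of RPL22B +64, and the cause was not tested. Slow against WT was 0.12 with Fisher's exact test and 0.082 with the fixed offset, and without 1 library it ran from −0.58 to 0.54. Without 1 library fast against WT ran from −0.39 to 0.12 and fast against slow from −0.67 to 0.45.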
